A study of Homo sapiens with 4 samples.

Results

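Interferon-stimulated genes were followed in 22Rv1 and PC3 human prostate cancer cells with and without morusin, a prenylated flavone from mulberry. The 33 genes were taken by symbol from a named list, and all 33 were found among the 60617 gene rows of the expression table, of which 42000 carried a symbol. The 4 libraries were 22Rv1 cells given morusin at 75 µM for 6 h, 22Rv1 cells without it, PC3 cells given morusin at 46 µM for 6 h, and PC3 cells without it, with 1 library for each. 22Rv1 is an established line from a prostate tumour xenograft, and PC3 is an established line from a bone metastasis. 22Rv1 was grown in RPMI and PC3 in F12, so that line and medium cannot be told apart, nor can line and dose in the treated libraries. No group had a replicate, and the labels do not say whether the treated and untreated libraries of a line came from separate cultures. The study examined the mRNA of these lines under morusin, and the untreated lines were also compared with each other here.

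Cells that sense viral RNA or DNA secrete type I interferons, which bind the IFNAR receptor on the same and neighbouring cells. The receptor's kinases JAK1 and TYK2 phosphorylate STAT2, which joins IRF9 in the complex ISGF3, and ISGF3 binds interferon-stimulated response elements in the promoters of a large antiviral gene programme. Many tumour lines differ in how much of this programme they express without added interferon, and parts of the sensing and signalling pathway are often lost or kept active in cancer.

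Promoter sequences show what many of these genes have in common at the DNA level. Promoters, taken as 250 bases before to 50 bases after an annotated start, were read from RefSeq on GRCh38.p14 for 27 members. IRF7, IFIT2, OAS2, OASL, USP18 and IFITM2 had no entry. The core of the response element was searched as GAAA, any 2 bases and a further GAAA, on both strands, so that on the strand printed it can also read as TTTC, any 2 bases and a further TTTC. It was found in the promoters of 19 of the 27 members (70.4%), compared with 1195 of 27305 symbols (4.38%) and 3.57% of all 35116 promoters in the same table. The members held 36 distinct matches, and 13 members had 2 or more, counting overlapping matches separately. TTCNNNGAA, the core bound by STAT dimers, reads the same on both strands and was in 9 members (33.3%), against 9.38% of symbols and 7.66% of promoters. Of those 9, IRF1, IRF9, OAS1 and IFI35 had no response element core, and STAT2, UBE2L6, TRIM25 and SAMHD1 had neither. In IFI27, MX1 and IFITM1 the TTCNNNGAA match shares bases with a response element core, as does the BST2 match at -136 to -128. In these the 2 motifs are not separate. These matches describe the letters in the window and were not tested as binding sites.

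The stretches printed here are from members whose levels differed between the lines, and they show the core singly, in tandem and overlapping. Each is on the strand of its gene, 5′ to 3′, with the matches to the response element core or its reverse complement in capitals. IFIT1 is shown at chr10:89392493-89392533 on the plus strand, from -130 to -90 relative to its start. The IFIT3 stretch, chr10:89332424-89332489 on the plus strand, runs from -105 to -40. OAS3 is shown at chr12:112938314-112938354 on the plus strand, from -160 to -120. In ISG15, at chr1:1013372-1013412 on the plus strand and -125 to -85, the capitals are 2 matches that overlap. The IFI6 stretch, chr1:27672267-27672357 on the minus strand, runs from -165 to -75. IFITM3 is shown at chr11:320880-320930 on the minus strand, from -70 to -20, and PARP9 at chr3:122564310-122564370 on the minus strand, from -70 to -10.
IFIT1: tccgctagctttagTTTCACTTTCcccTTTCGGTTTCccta
IFIT3: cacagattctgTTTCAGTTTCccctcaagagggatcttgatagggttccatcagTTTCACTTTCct
OAS3: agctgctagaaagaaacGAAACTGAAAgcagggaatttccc
ISG15: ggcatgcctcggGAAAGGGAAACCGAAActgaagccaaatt
IFI6: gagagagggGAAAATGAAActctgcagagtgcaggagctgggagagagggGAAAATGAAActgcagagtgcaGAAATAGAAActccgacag
IFITM3: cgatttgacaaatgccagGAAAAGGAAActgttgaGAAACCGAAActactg
PARP9: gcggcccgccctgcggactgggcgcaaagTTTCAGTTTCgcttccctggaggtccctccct

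**Figure D1:**
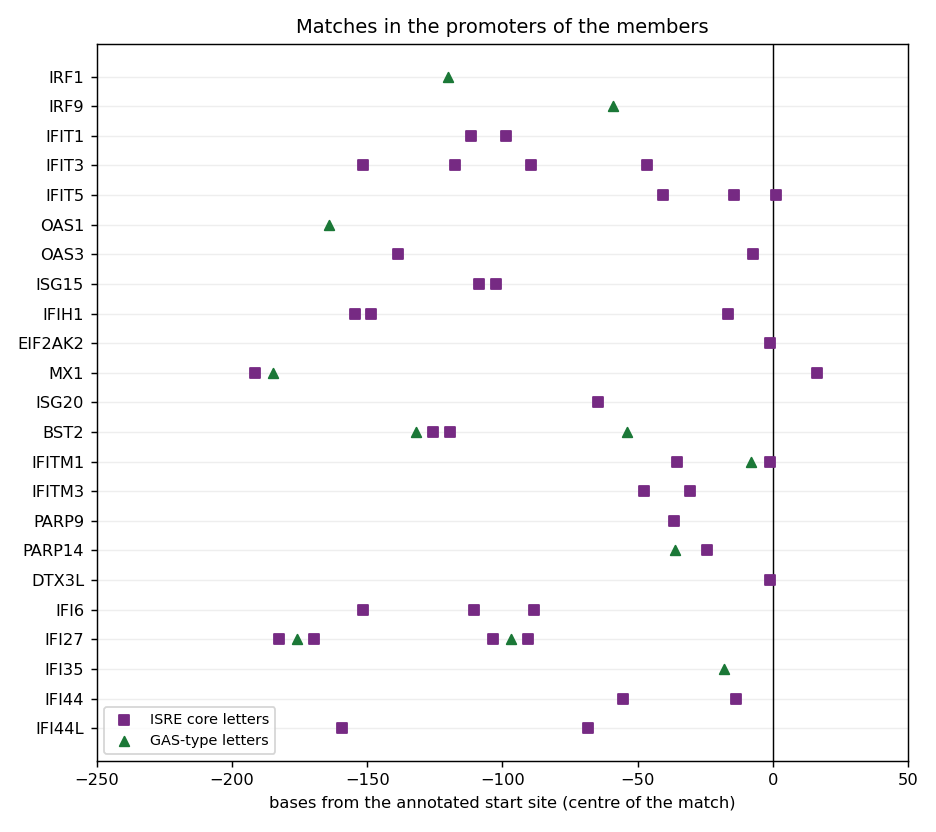
Matches to the response element core (ISRE core, squares) and TTCNNNGAA (GAS-type, triangles) in the RefSeq promoters of the members with at least 1 match, with 1 row per gene and the centre of each match in bases from the annotated start on the horizontal axis; a gene with several starts shows 1 place once for each start. The response element core is in 19 of the 27 members with an entry, and STAT2, UBE2L6, TRIM25 and SAMHD1, which hold neither motif, are not drawn.

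The labels were checked against marker genes of the lines. KLK4, a prostate kallikrein, had 429 FPKM in treated and 288 in untreated 22Rv1, against 0 in treated and 0.0173 in untreated PC3. FPKM are fragments per kilobase of transcript, scaled to the mapped fragments of the library, a level per length. All 7 luminal prostate markers were at least 2-fold higher in untreated 22Rv1 than in untreated PC3, and VIM, ANXA2 and CD44 were at least 2-fold lower. Markers of blood, stromal and endothelial cells were low, at up to 3.01 FPKM (COL1A1 in untreated PC3), and PTPRC, TYROBP, VWF and CDH5 were under 0.1 FPKM in each library. Their summed levels over 14 genes were 3.56 FPKM in treated and 3.07 in untreated 22Rv1, and 2.67 in treated and 4.56 in untreated PC3. Depth was estimated roughly from the low values at 19100000 to 40600000 read pairs per library. A gene listed at 0 was not seen at that depth, and 1 or 2 of 80 ribosomal protein symbols were also listed at 0 in each library.

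Untreated 22Rv1 cells had lower levels than untreated PC3 cells of nearly all the interferon-stimulated genes. The 33 genes summed to 127.5 FPKM in untreated 22Rv1 and 723 in untreated PC3, which was 0.0358% of all FPKM in 22Rv1 and 0.215% in PC3. The median member had 0.947 FPKM in untreated 22Rv1 and 12.4 in untreated PC3. In untreated 22Rv1, 17 members were under 1 FPKM, 5 of them listed at 0, and 10 had 5 FPKM or more, whereas in untreated PC3 1 member was under 1 FPKM and none was at 0. The 5 listed at 0 were IFIT1, IFIT3, OAS1, OAS2 and IFI6. ISG15 and IFITM2 were the most abundant members in untreated 22Rv1, and IFITM3 and ISG15 in untreated PC3.

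Ratios were taken as log2(FPKM + 1), which understates differences of low genes, and a gene was counted where it had at least 1 FPKM in a library compared. On this scale 26 of the 33 members were at least 2-fold lower in untreated 22Rv1 than in untreated PC3, and 0 were at least 2-fold higher. Over all 14363 genes compared, 19.2% were at least 2-fold lower in 22Rv1 and 19.8% were at least 2-fold higher. The median log2 ratio of the members was -2.35, whereas that of all genes was 0.11. Those not reaching 2-fold were IRF9, USP18, IFIH1, ISG20, PARP9, DTX3L and IFI27, and USP18 was the only one above 0. The other 32 members lay below 0, as did 46.1% of all genes, of which 53.9% lay above. Members under 1 FPKM in untreated 22Rv1 could pass the filter only through PC3, and then could only lie below 0. With 1 library per group these ratios have no test.

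**Figure D2:**
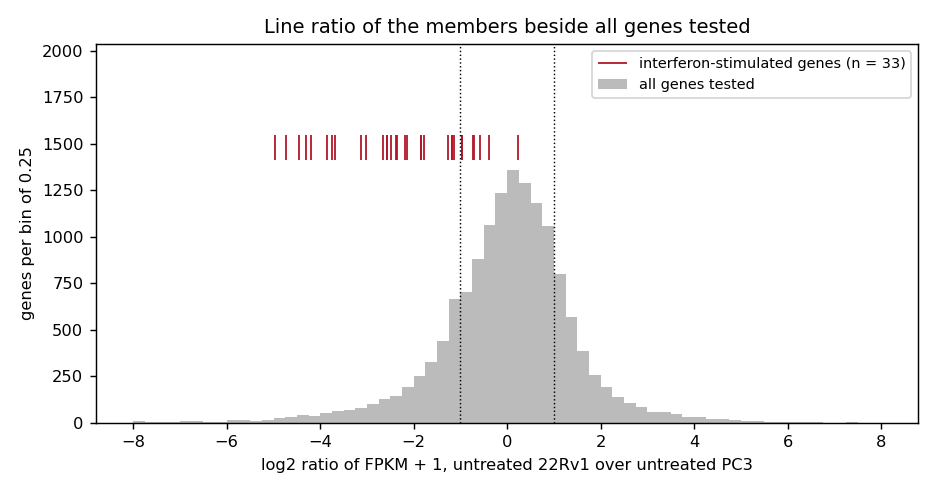
Log2(FPKM + 1) ratio of untreated 22Rv1 to untreated PC3 for each of the 33 members beside the distribution of all genes compared. The members run from -4.96 (OAS3) to 0.24 (USP18), and their median of -2.35 lies below the all-gene median of 0.11.

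A test of the line difference was available only by taking the treated and untreated library of each line as its 2 samples. limma was fitted with line and treatment as terms to 13980 genes with at least 1 FPKM in 2 libraries, and p-values were adjusted by Benjamini-Hochberg over all of them. This left 1 residual degree of freedom, so the error rests on how the treatment change differed between the lines and on the spread shared across genes. The p-values therefore do not measure the spread between replicate cultures of a line. Of the 31 members tested, 30 were lower in 22Rv1 at an adjusted p under 0.05 and 0 were higher, where 28.3% of all genes were lower and 36.1% were higher. UBE2L6 had the smallest adjusted p, with a log2 difference of -4.45 (SE 0.21, limma adjusted p = 4.39e-07). IFIH1 had the largest among the 30, with -0.83 (SE 0.23, limma adjusted p = 0.00988). Without the filter on low values IFIH1 (limma adjusted p = 0.0815), IRF9 (0.0515), TRIM25 (0.0554) and ISG20 (0.0529) lost the call, as did IFIH1 with treatment left out (0.0581). USP18 did not pass (0.24, SE 0.21, limma adjusted p = 0.351). In those 30 both 22Rv1 libraries lay below both PC3 libraries, as in 34.2% of all genes tested. Both lay above in USP18, as in 42.7% of all genes. IFI27 and IFI44L were too low to be tested. Of the 31 tested, 16 had 1 FPKM or more in the 22Rv1 libraries. The others, among them UBE2L6, IFIT1, OAS1 and IFI6, passed the filter only through PC3. Their direction was thus set by the filter, and both 22Rv1 libraries could only lie below both PC3 libraries.

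**Figure D3:**
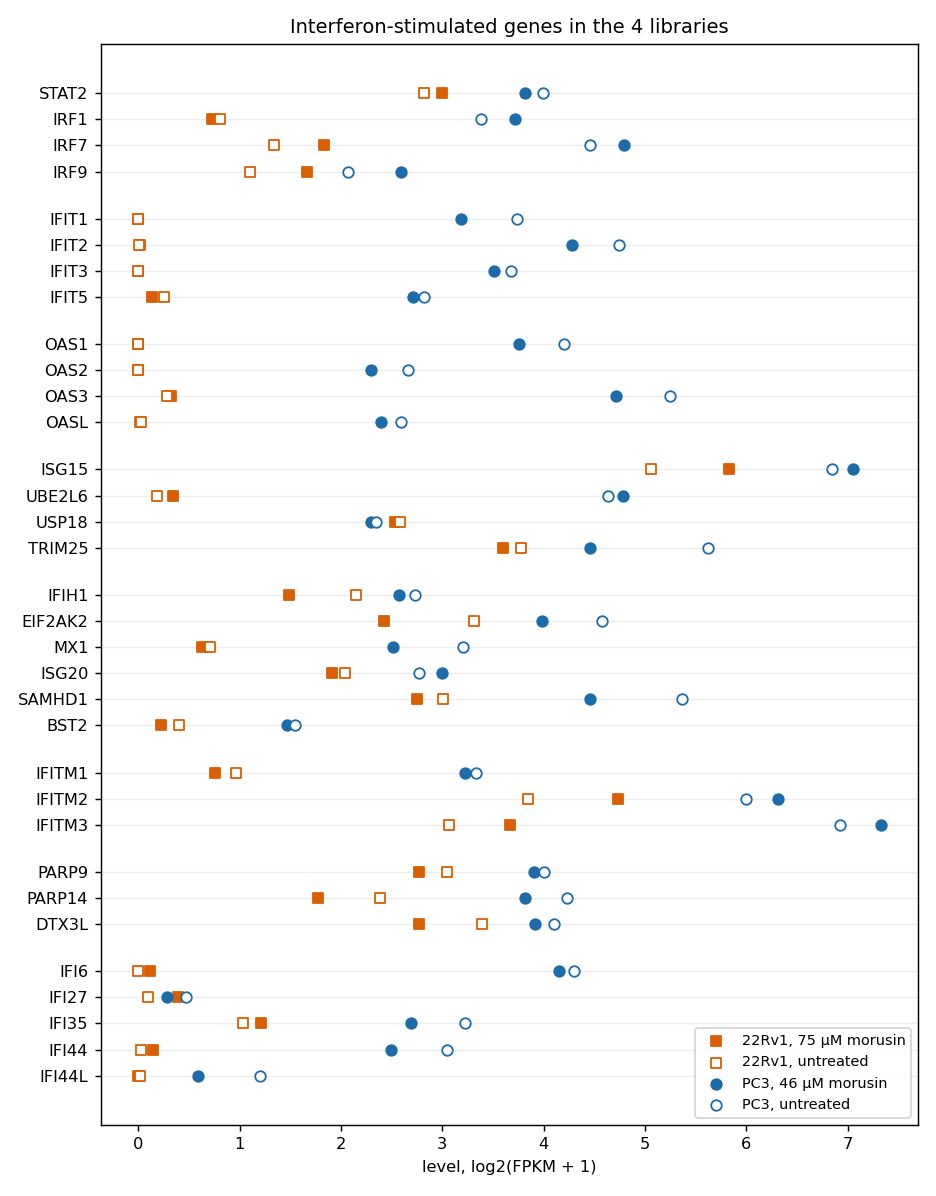
Level of each member as log2(FPKM + 1) in the 4 libraries, 1 row per gene grouped by role, with squares for 22Rv1, circles for PC3, filled marks for treated and open marks for untreated cells. Both 22Rv1 libraries lie below both PC3 libraries in 31 of the 33 members.

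The regulators of the response were present in both lines at different levels. STAT2, a subunit of ISGF3, had 6.99 FPKM in treated and 6.05 in untreated 22Rv1, and 13.1 in treated and 14.9 in untreated PC3. IRF9, the subunit of ISGF3 that reads the response element, had 2.17 FPKM in treated and 1.15 in untreated 22Rv1, and 5.04 in treated and 3.21 in untreated PC3. Both were lower in the 22Rv1 libraries without being absent there. The longest IRF9 transcript shares 100% of its 75-base stretches with the readthrough gene AL136295.5, so the IRF9 values are uncertain. AL136295.5 had 12.4 FPKM in treated and 8.21 in untreated 22Rv1, and 6.25 in treated and 11.7 in untreated PC3. IRF7, which drives transcription of interferon genes, had 2.57 FPKM in treated and 1.52 in untreated 22Rv1, and 26.8 in treated and 20.9 in untreated PC3. IRF1, a factor induced by interferon gamma, had 0.661 FPKM in treated and 0.754 in untreated 22Rv1, and 12.1 in treated and 9.46 in untreated PC3. For IRF7 and IRF1 the 2 lines were far apart, with log2 ratios of untreated 22Rv1 to untreated PC3 of -3.12 and -2.58. Ratios of treated to untreated cells were smaller, at 0.50 in 22Rv1 and 0.34 in PC3 for IRF7. For IRF1 they were -0.08 in 22Rv1 and 0.33 in PC3. IRF1 shares 22.0% of its exon bases with C5orf56 on the opposite strand, which had under 1 FPKM in each library.

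The IFIT genes lie together on chromosome 10 (IFIT2 at 89283694 to 89309276, IFIT3 at 89327894 to 89340971, IFIT1 at 89392546 to 89406486 and IFIT5 at 89414586 to 89421001, GRCh38). They encode proteins that bind viral RNA, and IFIT1 recognises caps that lack a 2′-O-methyl group. IFIT1 was listed at 0 in treated and untreated 22Rv1, and had 8.07 FPKM in treated and 12.4 in untreated PC3. IFIT3, which stabilises IFIT1, was likewise listed at 0 in treated and untreated 22Rv1, and had 10.4 FPKM in treated and 11.8 in untreated PC3. IFIT2 had 0.0119 FPKM in treated and 0.00789 in untreated 22Rv1, and 18.5 in treated and 25.8 in untreated PC3. All 3 were at or near 0 in 22Rv1 whatever the treatment and were clearly measured in both PC3 libraries. IFIT5, which binds RNA with a 5′ triphosphate, had 0.0990 FPKM in treated and 0.197 in untreated 22Rv1, and 5.54 in treated and 6.08 in untreated PC3. It too was under 1 FPKM in both 22Rv1 libraries. The promoters of IFIT1, IFIT3 and IFIT5 held 2, 4 and 3 matches to the response element core. IFIT2 shares 7.77% of its 75-base stretches with AL353751.1, which was listed at 0 in both 22Rv1 libraries and at 12.0 FPKM in treated and 7.99 in untreated PC3.

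The OAS family was as low in 22Rv1 as the IFIT genes. OAS1, OAS3 and OAS2 follow each other on chromosome 12 (112906777 to 112933222, 112938352 to 112973249 and 112978395 to 113011723) and make 2′-5′-linked oligoadenylate on double-stranded RNA, which activates RNase L. OAS1 was listed at 0 in treated and untreated 22Rv1, and had 12.5 FPKM in treated and 17.4 in untreated PC3. OAS2 was also listed at 0 in treated and untreated 22Rv1, and had 3.92 FPKM in treated and 5.33 in untreated PC3. OAS3 had 0.249 FPKM in treated and 0.221 in untreated 22Rv1, and 25.3 in treated and 37.0 in untreated PC3. Its log2 ratio of untreated 22Rv1 to untreated PC3, -4.96, was the lowest among the members. OASL, a relative that does not make oligoadenylate and acts with the RNA sensor RIG-I, had 0.0137 FPKM in treated and 0.0224 in untreated 22Rv1, and 4.27 in treated and 5.06 in untreated PC3. In all 4 genes neither 22Rv1 library reached 1 FPKM and both PC3 libraries were above 3 FPKM.

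ISG15, a ubiquitin-like protein that is joined to other proteins, was the most abundant member in 22Rv1. It had 55.9 FPKM in treated and 32.4 in untreated 22Rv1, and 132 in treated and 114 in untreated PC3. UBE2L6, the conjugating enzyme for ISG15, had 0.267 FPKM in treated and 0.139 in untreated 22Rv1, and 26.5 in treated and 23.9 in untreated PC3. ISG15 was thus well measured in 22Rv1 while its conjugating enzyme was under 1 FPKM in both libraries. TRIM25, a ligase that acts on RIG-I, had 11.1 FPKM in treated and 12.7 in untreated 22Rv1, and 21.0 in treated and 48.3 in untreated PC3. Its untreated PC3 library stood well above the other 3. USP18, which removes ISG15 and dampens signalling at IFNAR, had 4.79 FPKM in treated and 5.01 in untreated 22Rv1, and 3.91 in treated and 4.09 in untreated PC3. USP18 was the member with nearly equal levels in all 4 libraries, and it shares 18.3% of its 75-base stretches with USP41, which had under 1 FPKM in each.

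Sensors and antiviral effectors ranged from small to large differences between the lines. IFIH1, known as MDA5, a sensor of long double-stranded RNA, had 1.81 FPKM in treated and 3.44 in untreated 22Rv1, and 4.97 in treated and 5.65 in untreated PC3. EIF2AK2, the kinase PKR that halts translation on double-stranded RNA, had 4.39 FPKM in treated and 8.98 in untreated 22Rv1, and 14.9 in treated and 22.8 in untreated PC3. Both had a lower treated than untreated library in each line, and both were lower in 22Rv1 than in PC3. MX1, a GTPase that traps viral components, had 0.551 FPKM in treated and 0.635 in untreated 22Rv1, and 4.70 in treated and 8.23 in untreated PC3. SAMHD1, which breaks down deoxynucleotide triphosphates, had 5.74 FPKM in treated and 7.07 in untreated 22Rv1, and 21.0 in treated and 40.2 in untreated PC3. In these as well the untreated PC3 library was the highest. SAMHD1 shares 10.3% of its exon bases with TLDC2 on the opposite strand, which had at most 1.65 FPKM. ISG20, an exonuclease that degrades RNA, had 2.77 FPKM in treated and 3.11 in untreated 22Rv1, and 7.004 in treated and 5.83 in untreated PC3. BST2, also called tetherin, which holds budding virions at the membrane, had 0.169 FPKM in treated and 0.319 in untreated 22Rv1, and 1.77 in treated and 1.92 in untreated PC3. ISG20 was lower in 22Rv1, with log2 line ratios of -1.08 in treated and -0.73 in untreated cells, and BST2 was under 2 FPKM in both lines.

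The IFITM proteins, which hinder fusion of viral and cell membranes, are encoded side by side on chromosome 11 (IFITM2 at 307631 to 315272, IFITM1 at 313506 to 315272 and IFITM3 at 319669 to 327537). IFITM3 had 11.7 FPKM in treated and 7.36 in untreated 22Rv1, and 160.3 in treated and 121 in untreated PC3, where it was the most abundant member. IFITM2 had 25.6 FPKM in treated and 13.4 in untreated 22Rv1, and 78.5 in treated and 63.0 in untreated PC3. IFITM1 had 0.689 FPKM in treated and 0.947 in untreated 22Rv1, and 8.36 in treated and 9.07 in untreated PC3. All 3 were lower in both 22Rv1 libraries, and IFITM2 exceeded IFITM3 in 22Rv1 while IFITM3 exceeded IFITM2 in PC3. These paralogs share sequence, with 37.0% of the 75-base stretches of IFITM1 also in IFITM2, and overlap in annotation, so reads may have been split between them.

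PARP9 and DTX3L showed smaller line differences than PARP14, with log2 ratios of untreated 22Rv1 to untreated PC3 of -0.96, -0.72 and -1.85. PARP9 and the ubiquitin ligase DTX3L form a complex, and their genes start head to head on chromosome 3 (PARP9 at 122527924 to 122564577 on the minus strand, DTX3L at 122564238 to 122575203 on the plus strand). Both promoters hold the same match to the response element core, at chr3:122564332-122564341, within the PARP9 stretch printed above. PARP9 had 5.84 FPKM in treated and 7.26 in untreated 22Rv1, and 13.997 in treated and 15.1 in untreated PC3. DTX3L had 5.81 FPKM in treated and 9.48 in untreated 22Rv1, and 14.1 in treated and 16.2 in untreated PC3. The levels of this head-to-head pair were close in every library, with 217 exon bases shared on opposite strands. PARP14, a mono-ADP-ribosyltransferase, had 2.43 FPKM in treated and 4.21 in untreated 22Rv1, and 13.1 in treated and 17.8 in untreated PC3. It was the one member of these 3 that was at least 2-fold lower in untreated 22Rv1 than in untreated PC3.

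The remaining members carry names given for their induction by interferon. IFI6, a small membrane protein, had 0.0867 FPKM in treated 22Rv1 and was listed at 0 in untreated 22Rv1, and had 16.8 FPKM in treated and 18.7 in untreated PC3. IFI44 had 0.103 FPKM in treated and 0.0191 in untreated 22Rv1, and 4.62 in treated and 7.27 in untreated PC3. Its neighbour IFI44L, which lies before it on chromosome 1 (78619922 to 78646145, with IFI44 at 78649796 to 78664078), was listed at 0 in treated and had 0.0121 FPKM in untreated 22Rv1, and had 0.510 in treated and 1.31 in untreated PC3. These 3 were near 0 in both 22Rv1 libraries. IFI35, which binds the related protein NMI, had 1.31 FPKM in treated and 1.05 in untreated 22Rv1, and 5.44 in treated and 8.32 in untreated PC3. IFI27 stayed under 1 FPKM in every library, with 0.314 in treated and 0.0665 in untreated 22Rv1, and 0.217 in treated and 0.389 in untreated PC3. It was the only member under 1 FPKM in all 4 libraries, though above 0 in each, and its promoter held 2 matches to the response element core.

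The line difference was found in members with and without the motif. Of the 19 with the response element core in their promoter, 14 were at least 2-fold lower in untreated 22Rv1 than in untreated PC3 (73.7%, median log2 ratio -1.85). Of the 8 without it, 7 were (87.5%, median -2.27). Among genes outside the list that had a promoter entry, 84 of 369 with the motif were at least 2-fold lower (22.8%), compared with 18.9% of 10117 without it. In these, 17.9% with the motif and 18.0% without it were at least 2-fold higher.

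Ratios of treated to untreated 22Rv1 were small for the interferon-stimulated genes. On the log2(FPKM + 1) scale, 0 of the 16 members with 1 FPKM or more in a 22Rv1 library were 2-fold higher or lower. Of the 13361 genes at that level, 3.48% were at least 2-fold higher and 1.02% lower. The other 17 members, under 1 FPKM in both libraries, could not reach 2-fold on this scale. The log2 ratios ran from -0.89 for EIF2AK2 to 0.89 for IFITM2. EIF2AK2, at 4.39 FPKM in treated and 8.98 in untreated 22Rv1, was past 2-fold with a pseudocount of 0.1 (-1.02) and with all libraries at an equal sum (-1.16). Of the 16 members with 1 FPKM or more, 7 were above 0 and 9 below, against 49.4% and 50.6% of all genes. Those with the highest ratios after IFITM2 were ISG15 at 0.77, IFITM3 at 0.61, IRF9 at 0.56 and IRF7 at 0.50. Those with the lowest after EIF2AK2 were IFIH1 at -0.66, DTX3L at -0.62 and PARP14 at -0.60. The 17 members under 1 FPKM in untreated 22Rv1, the IFIT and OAS genes among them, were also under 1 FPKM in treated 22Rv1. Of the genes past 2-fold with morusin in 22Rv1, 77.4% were higher as deposited and 45.9% once all libraries were given an equal sum, so that directions in 22Rv1 depended on the scale.

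On the same scale the one member with a 2-fold ratio in PC3 was TRIM25, at 21.0 FPKM in treated and 48.3 in untreated cells. Its log2 ratio was -1.17, with a counting standard error of about 0.03 that holds no biological spread. IFI44L was also past 2-fold with a pseudocount of 0.1 (-1.20), and IFI44L (-1.02) and SAMHD1 (-1.02) were with all libraries at an equal sum. No other member was at least 2-fold lower as reported and 0 were at least 2-fold higher, where 2.64% of 12907 genes were lower and 1.24% higher to that extent. After TRIM25 came SAMHD1 at -0.91, MX1 at -0.69, IFI44L at -0.61 and EIF2AK2 at -0.59. Among the 33 members 25 lay below 0 and 8 above, with a median of -0.18, whereas of all genes 55.8% lay below 0 and 44.2% above, with a median of -0.05. The 4 IFIT, 4 OAS, 3 PARP9-group and 5 IFI-named genes all lay below 0 as deposited, between -0.10 for PARP9 and -0.61 for IFI44L. Above 0 were IRF9 at 0.52, IFITM3 at 0.41, IRF7 at 0.34, IRF1 at 0.33, IFITM2 at 0.31, ISG20 at 0.23, ISG15 at 0.20 and UBE2L6 at 0.15.

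**Figure D4:**
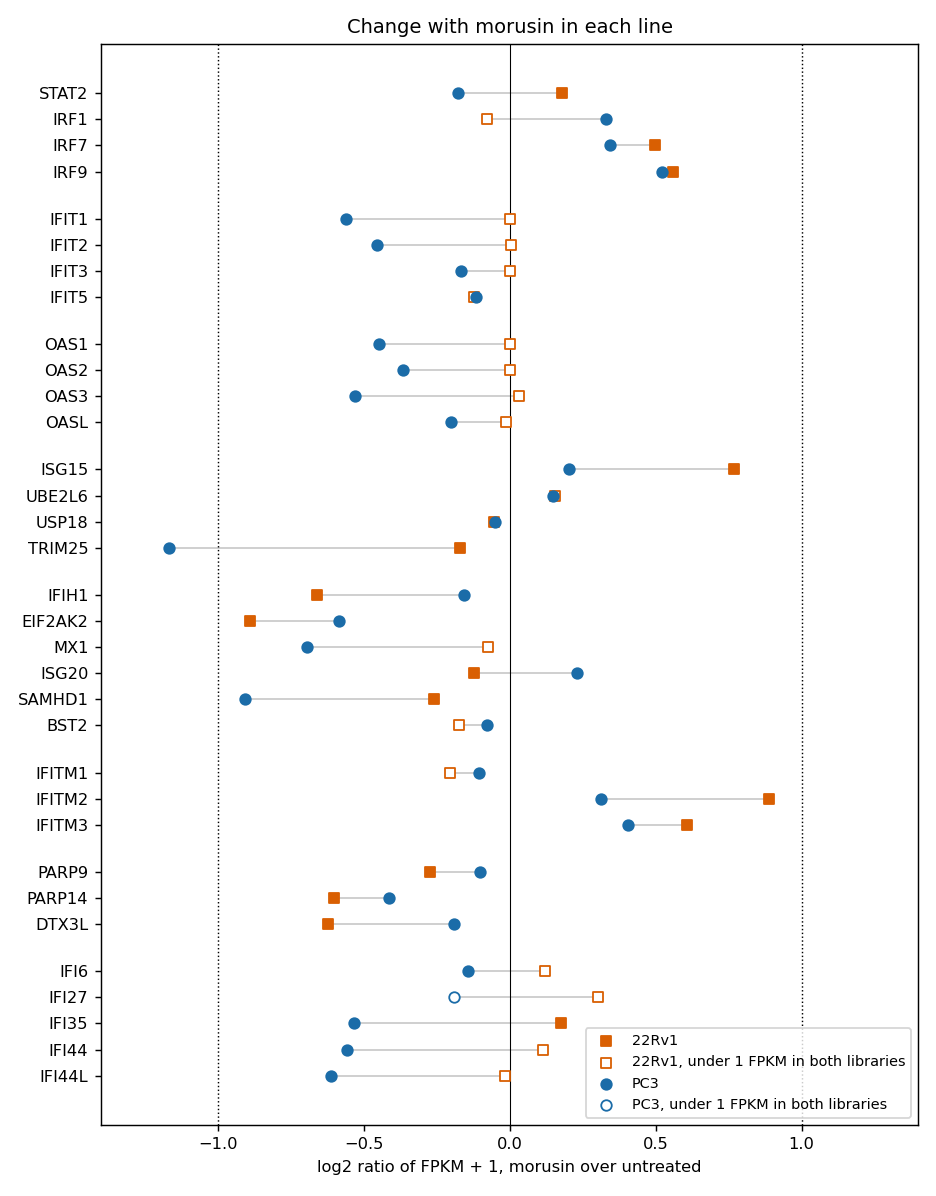
Log2(FPKM + 1) ratio of treated to untreated cells for each member in 22Rv1 and in PC3, with dotted lines at 2-fold and open marks for genes under 1 FPKM in both libraries of a line. TRIM25 in PC3, at -1.17, is the only point past 2-fold. Open marks cannot reach 2-fold on this scale. The IFIT and OAS genes, under 1 FPKM in both 22Rv1 libraries, lie near 0 in 22Rv1.

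A limma term for treatment shared by the lines gave 0 of the 31 members tested higher and 0 lower at an adjusted p under 0.05, where 0.351% and 0.236% of all genes were. At an unadjusted p under 0.05, 4 members were higher (IRF9, ISG15, IFITM2 and IFITM3) and 4 were lower (TRIM25, EIF2AK2, SAMHD1 and PARP14), against 7.75% of all genes higher and 10.8% lower. EIF2AK2 had the smallest adjusted p, with a log2 difference of -0.74 (SE 0.21, limma adjusted p = 0.152). IFITM2 followed with 0.60 (SE 0.21, limma adjusted p = 0.192). Each of these 8 genes had ratios of the same sign in both lines, which their selection favours, since the term averages the ratios of the 2 lines. Of the 16 members with 1 FPKM or more in both lines, 5 were above 0 in both, 8 were below 0 in both, and STAT2, ISG20 and IFI35 had opposite signs. No member's treatment ratio differed at least 2-fold between the lines, where 3.52% of 15028 genes were higher by that much in 22Rv1 and 1.1% were lower. TRIM25 came closest, with a gap of 0.997 on the log2 scale.

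Transcript length moved with the treatment ratios. Length was that of the longest annotated transcript of each gene, which may differ from the transcript expressed. Across 13310 genes in 22Rv1 the correlation of the log2 ratio with log2 length was -0.44, and the fitted slope was -0.20 for each doubling of length. Over the 16 members measured in 22Rv1 the correlation was -0.88, with the short ISG15 (787 bases), IFITM3 (808 bases) and IFITM2 (892 bases) high and the long EIF2AK2 (10042 bases) and PARP14 (8437 bases) low. In PC3 the correlation was -0.28 across 12868 genes and -0.48 over 32 members, with a slope of -0.12 for each doubling. All points of a comparison share the same pair of libraries. With the fitted length trend removed, the 22Rv1 ratios were 0.39 for ISG15, 0.54 for IFITM2, 0.23 for IFITM3, -0.52 for EIF2AK2 and -0.29 for PARP14. TRIM25 in PC3 stayed past 2-fold at -1.07, while ISG15 at -0.03 and PARP9 at 0.03 in PC3 then had the other sign. The line comparison had a correlation with length of -0.07 across 14305 genes and counted 27 members at least 2-fold lower in untreated 22Rv1 with the trend removed, against 26 as deposited.

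**Figure D5:**
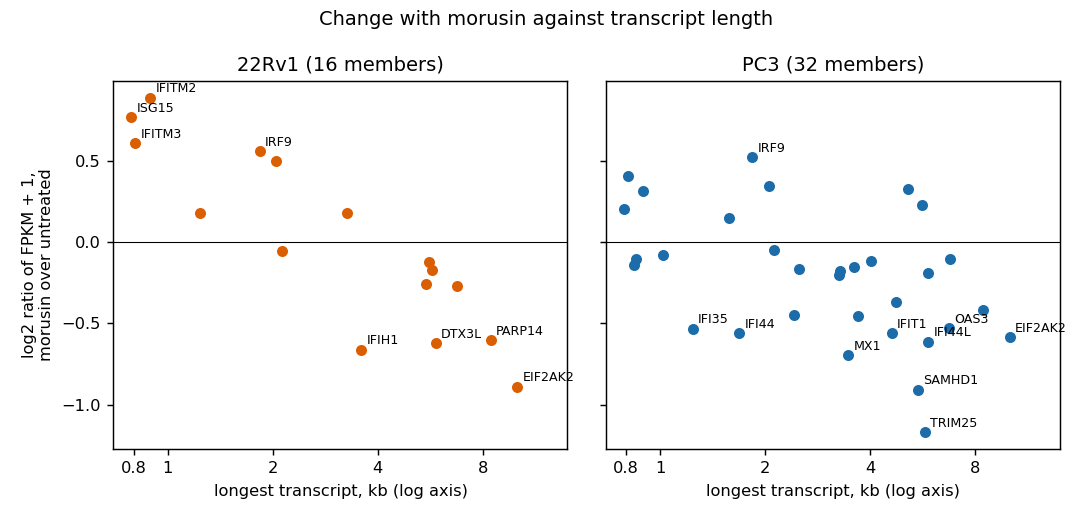
Log2(FPKM + 1) ratio of treated to untreated cells against the length of the longest annotated transcript on a log axis, for the members with 1 FPKM or more in 22Rv1 and in PC3. In 22Rv1 the short ISG15, IFITM2 and IFITM3 lie high and the long EIF2AK2 and PARP14 lie low, with r = -0.88 over 16 members. In PC3 r is -0.48 over 32 members. There the short IFITM1 (-0.11), IFI6 (-0.14), BST2 (-0.08) and IFI35 (-0.53) lie below 0, while ISG15, IFITM2 and IFITM3 lie above it.

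The interferon genes themselves were hardly detected. All 21 interferon ligand genes were listed at 0 in both 22Rv1 libraries, and 17 were listed at 0 in treated and 19 in untreated PC3. IFNE had 0.191 FPKM in treated and 0.480 in untreated PC3, and IFNB1, the main type I interferon of non-immune cells, had 0.216 in treated and 0.182 in untreated PC3. IFNL1 and IFNL2 had 0.189 and 0.190 FPKM in treated PC3, an estimated 4.65 and 4.02 read pairs, and were listed at 0 in untreated PC3. No ligand reached 1 FPKM in any library, while 32 of the 33 responding genes had 1 FPKM or more in untreated PC3.

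Among 15 receptor and JAK-STAT genes, 5 were at least 2-fold lower in untreated 22Rv1 than in untreated PC3 and 0 were higher, against 19.2% and 19.8% of all genes. The limma line term gave 7 lower and 1 higher, against 28.3% and 36.1% of all genes. JAK1, the kinase shared by all interferon receptors, had 1.55 FPKM in treated and 1.08 in untreated 22Rv1, and 16.8 in treated and 19.0 in untreated PC3. SOCS3, a feedback inhibitor, had 0.196 FPKM in treated and 0.0783 in untreated 22Rv1, and 10.4 in treated and 8.45 in untreated PC3. IFNGR2, a chain of the interferon gamma receptor, had 11.7 FPKM in treated and 10.3 in untreated 22Rv1, and 28.5 in treated and 27.3 in untreated PC3. TYK2, the kinase paired with JAK1 at IFNAR, was the 1 gene of the 15 that was at least 2-fold higher with morusin in 22Rv1, at 44.0 FPKM in treated and 21.5 in untreated cells (log2 ratio 1.0002, at the threshold). TYK2 had 50.3 FPKM in treated and 48.4 in untreated PC3. Of all genes, 3.48% were at least 2-fold higher with morusin in 22Rv1. IFNAR1, a receptor chain, had 7.41 FPKM in treated and 11.6 in untreated 22Rv1.

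Of 14 genes for sensing of foreign RNA and DNA, 7 were at least 2-fold lower in untreated 22Rv1 than in untreated PC3 and 0 were higher, against the same 19.2% and 19.8% of all genes. In the limma line term 8 of 10 tested were lower and 1 was higher, against 28.3% and 36.1%. STING1, the adaptor for cytosolic DNA, was listed at 0 in treated and untreated 22Rv1, and had 7.82 FPKM in treated and 6.89 in untreated PC3. CGAS, the DNA sensor upstream of it, had 0.0251 FPKM in treated and 0.0226 in untreated 22Rv1, and 10.1 in treated and 7.85 in untreated PC3. RIGI, an RNA sensor, had 0.424 FPKM in treated and 0.885 in untreated 22Rv1, and 5.58 in treated and 9.67 in untreated PC3. All 3 of these sensing genes were below 1 FPKM in both 22Rv1 libraries. MAVS, the mitochondrial adaptor of RIG-I and MDA5, was the 1 gene of the list past 2-fold with morusin in PC3, at 7.53 FPKM in treated and 23.2 in untreated cells (log2 ratio -1.50). At least 2-fold lower with morusin in PC3 were 2.64% of all genes. In 22Rv1 MAVS had 6.47 FPKM in treated and 9.67 in untreated cells. TBK1, the kinase below these adaptors, had 6.75 FPKM in treated and 13.1 in untreated PC3, and 13.3 in treated and 19.3 in untreated 22Rv1.

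Antigen presentation genes, many of which are interferon targets, were also lower in 22Rv1. At least 2-fold lower in untreated 22Rv1 were 13 of 18, against 19.2% of all genes, and the limma line term gave 13 of 16 tested lower and 0 higher, against 28.3% and 36.1%. HLA-B, a class I heavy chain, had 0.155 FPKM in treated and 0.334 in untreated 22Rv1, and 30.2 in treated and 26.8 in untreated PC3. HLA-C, another, had 1.58 FPKM in treated and 1.43 in untreated 22Rv1, and 51.3 in treated and 47.4 in untreated PC3. B2M, their light chain, had 95.3 FPKM in treated and 58.0 in untreated 22Rv1, and 292 in treated and 257 in untreated PC3. Both heavy chains and the light chain were lower in 22Rv1, and B2M was still abundant there. PSMB8, an immunoproteasome subunit, had 0.0255 FPKM in treated and 0.0300 in untreated 22Rv1, and 9.25 in treated and 13.7 in untreated PC3. HLA genes are similar in sequence and differ between people, so their reads may be split or lost in counting. None of the 18 was 2-fold higher or lower with morusin in either line. Only 10 of them had 1 FPKM or more in a 22Rv1 library and 16 in a PC3 library, and the rest could not reach 2-fold. Of all genes, 3.48% were higher and 1.02% lower in 22Rv1, and 1.24% higher and 2.64% lower in PC3.

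A further 35 interferon-stimulated genes outside the 33 showed the same order, with 20 at least 2-fold lower in untreated 22Rv1 than in untreated PC3 and 0 higher, against 19.2% and 19.8% of all genes. The limma line term gave 21 of 25 tested lower and 0 higher, against 28.3% and 36.1%. LGALS3BP, a secreted glycoprotein, had 0.151 FPKM in treated and 0.255 in untreated 22Rv1, and 36.3 in treated and 40.03 in untreated PC3. SP100, a component of nuclear bodies, had 0.0280 FPKM in treated and 0.0959 in untreated 22Rv1, and 16.0 in treated and 15.5 in untreated PC3. HELZ2 was the only one of the 35 past 2-fold with morusin, at 8.79 FPKM in treated and 19.3 in untreated PC3 (log2 ratio -1.05). Of all genes, 2.64% were at least 2-fold lower in PC3. Only 26 of the 35 had 1 FPKM or more in a PC3 library and 11 in a 22Rv1 library. ADAR, which edits double-stranded RNA and is expressed without interferon, had 58.0 FPKM in treated and 95.3 in untreated 22Rv1, and 46.7 in treated and 64.0 in untreated PC3. Over these 4 pathway lists, 0 of 66 genes tested passed the limma treatment term at an adjusted p under 0.05, and at an unadjusted p under 0.05 2 were higher and 10 lower, against 7.75% and 10.8% of all genes. In bulk RNA, fewer cells expressing a gene and less of its RNA per cell cannot be told apart.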

How the data were processed

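RNA of 2 established lines was sequenced in 4 TruSeq libraries as paired 150-base reads, per the labels' protocols. The authors deposited FPKM values per Ensembl gene, with no counts. Per the submitters' processing notes, Trimmomatic, HISAT2 and StringTie were used with GRCh38. Tool versions, annotation release and use of strand were not given in the sources used here. FPKM depend on each library's total and on transcript length.

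Members, lists and tests were chosen with earlier results of these data known. Symbols came from an Ensembl name table (60261 IDs matched), and positions, lengths of the longest transcript and overlaps from GENCODE 29. Ratios are log2(FPKM + 1), with genes at 1 FPKM or more in a library compared and a 2-fold size threshold. In every list, a gene under 1 FPKM in a line's libraries passed the line comparison's filters only through the other line, which fixed its direction. Between single libraries there is no test. limma 3.58.1 in R 4.3.3 was fitted to log2(FPKM + 1) with a variance trend, checked on simulated data. Python 3.11.15 did the rest. Values are given for each member with 5 FPKM in a library or a 2-fold ratio. For other lists, up to 4 genes per comparison with the largest ratio and 5 FPKM or more were eligible to be named. IFNE, IFNB1, IFNL1 and IFNL2 were chosen after their values were seen. The TTCNNNGAA search was added after the data were seen. A protein comparison of IFITM1 to IFITM3 was not run. Depth was inferred from steps in low FPKM of single-exon genes and is rough; counting errors rest on it. Alternatives were other pseudocounts, no filter, rescaling, centring, quantile normalization and removal of the length trend.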

Additional observations from a re-analysis of the deposited data

Results flagged for a closer look

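STAT2, ISG20 and IFI35 had morusin ratios of opposite sign in the 2 lines. The difference of the log2 ratios, 22Rv1 minus PC3, was 0.36 for STAT2, -0.35 for ISG20 and 0.71 for IFI35. IFI35 had 1.31 FPKM in treated and 1.05 in untreated 22Rv1, and 5.44 in treated and 8.32 in untreated PC3. STAT2 had log2 ratios of 0.18 in 22Rv1 and -0.18 in PC3, and ISG20 had -0.12 in 22Rv1 and 0.23 in PC3. With 1 library per group these differences were not tested, and the doses were 75 µM in 22Rv1 and 46 µM in PC3. With the fitted length trend removed, the 22Rv1 ratio was -0.07 for IFI35 and 0.07 for ISG20, which put both on the same side of 0 as in PC3.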

How the results depend on the processing

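The count of members at least 2-fold lower in untreated 22Rv1 than in untreated PC3 was 26 and stayed between 22 and 28 under other pseudocounts, no filter, rescaling, centring and removal of the length trend. Members lower by the limma line term were 27 to 31 over its alternatives, against 30, with 28.3% of all genes lower as reported. With morusin in 22Rv1, 1 member was at least 2-fold lower with a pseudocount of 0.1 and 1 when libraries were rescaled to the same sum (EIF2AK2 in both), against 0. With morusin in PC3, 2 members were at least 2-fold lower with a pseudocount of 0.1 (TRIM25 and IFI44L) and 3 after rescaling (SAMHD1 in addition), against 1. Gaps between the lines of at least 2-fold, higher in 22Rv1, were found for 4 members with a pseudocount of 0.1, against 0. After rescaling 1 member had such a gap, as did 1 with the length trend removed. Over all genes these gaps numbered 1245 of 15028, 943 of 18097 and 517 of 15028 in the same order, against 529 of 15028. The limma treatment term had 1 member lower after rescaling (EIF2AK2, limma adjusted p = 0.0497), against 0. The causes were not tested. Rescaling moved the all-gene median with morusin to -0.17 in 22Rv1 and -0.15 in PC3, and the share of 2-fold genes that were higher in treated 22Rv1 to 45.9%, and removing the length trend moved it to 64.2%, against 77.4% as deposited. Without the filter, IRF9 (0.0515), TRIM25 (0.0554), IFIH1 (0.0815) and ISG20 (0.0529) missed the adjusted limma p of 0.05 in the line term. The lines were a term of the limma fit. Without that replicate block, 0 members passed the treatment term. With treatment left out, also without a block, IFIH1 missed the line threshold (limma adjusted p = 0.0581). No library could be left out, since each group had 1. No ratio past 2-fold and no passing limma difference changed sign.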
